A study of Bos taurus with 20 samples.

Results

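Trophectoderm (TE), the outer epithelium of the embryo, was compared between vitrified and fresh bovine embryos at day 14. The 12 samples of this comparison, 7 of TE from vitrified embryos (vitrified TE 1 to 7) and 5 of TE from fresh embryos (fresh TE 1 to 5), were taken by their labels from 20 in all. The other 8 samples were 6 fresh and 2 vitrified whole embryos, and the fresh whole embryos are given beside the TE values below. Fresh embryos had not been vitrified, which is cooling so fast that the medium turns to glass instead of ice. No transgene, drug or other treatment is named for any group. The labels name neither the embryo behind a sample nor an extraction or sequencing batch, and vitrification cannot be told apart from any batch that coincides with it.

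In the days before attachment to the uterus the bovine TE elongates and grows quickly while it is fed by secretions of the uterine glands. Its cells take up folate, phosphate, metals and lipids, and they signal to the mother with secreted proteins. Growth of this kind draws on one-carbon metabolism, which supplies methyl groups and nucleotide carbons, and on the adhesion and cytoskeletal machinery of an epithelium that changes shape.

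Levels are reads per kilobase of genomic span per M reads of the library (RPKM), where M stands for 1000000. Introns count in the span, so a long gene shows a low value, and comparisons below are within a gene. Recovered depth of the 12 TE libraries was 6.01 to 9.55 M reads, with 7.73 to 9.55 M in vitrified and 6.01 to 7.85 M in fresh TE. Reads in listed genes numbered 4.48 to 5.51 M in vitrified and 2.03 to 3.09 M in fresh TE, without overlap. Listed genes took 58.7 ± 0.942% of reads in vitrified TE (SD, n = 7) and 38.0 ± 2.83% in fresh TE (n = 5). Libraries held 9187 ± 208 against 6899 ± 277 genes with at least 10 reads, a number that depends on depth and was not corrected for it. For both, the exact two-sided permutation p was 0.0025 (adjusted p = 0.0038 over 3 measures). It was 0.017 when near-identical fresh libraries were averaged and the 7 vitrified ones kept separate. Each is the smallest p that the test can give with these sample numbers. The share of the 10 most abundant genes was 14.7 ± 1.65% and 15.1 ± 0.333% (exact permutation p = 0.57). Mitochondrially encoded mRNAs took 6.29 to 9.87% of listed reads in vitrified TE, 1.09 to 1.41% in fresh TE and 3.28 to 5.12% in fresh whole embryos.

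Several libraries of a group were alike. Fresh TE 1 and 2, and fresh TE 3 and 4, differed by little more than sampling noise, with a chi-square per degree of freedom of 1.88 and 1.48, against 11.9 to 22.6 for other fresh TE pairs. Among vitrified TE this value was 6.885 for libraries 1 and 2, 21.45 for 3 and 4 and 14.75 for 6 and 7, against 10.18 to 34.14 for the other pairs. Over all genes, vitrified TE 3 and 4, and 6 and 7, were therefore less alike than some other pairs. The vitrified TE libraries fell into pairs only by genes that were on in some and off in others. Such genes numbered 21, chosen after their values were seen. Vitrified TE 1 and 2 had the same state in 20 of the 21, vitrified TE 3 and 4 in 18, and vitrified TE 6 and 7 in 19. The other 18 vitrified TE pairs shared the state of 5 to 13 genes. The vitrified whole embryo 1 matched vitrified TE 1 in 21 and vitrified TE 2 in 20 of the 21, and the vitrified whole embryo 2 matched vitrified TE 5 in 17. DDX3Y, a Y-linked helicase gene that the file places on the X chromosome, was among these genes. It had 0, 1, 0, 0 and 0 reads in fresh TE 1 to 5, 105 to 178 in vitrified TE 1 to 5 and 0 in vitrified TE 6 and 7. All 12 TE libraries were kept as separate samples, so p-values count libraries that may not be independent. The counts below are also given with like libraries averaged. Like libraries were near-identical over all genes in fresh TE, but were paired by the 21 genes alone in vitrified TE.

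Trophectoderm markers were present in both groups. As deposited, their summed level was 12417 to 17257 reads per M in vitrified TE and 12369.9 to 16319 in fresh TE. Of 15 markers 3 were called higher and 5 lower in vitrified TE. All marker levels in this paragraph are as deposited. The median-ratio scaling used below divides vitrified TE libraries by 1.33 to 1.44 and fresh TE libraries by 0.586 to 0.667. The size of every difference in these sums therefore depends on the scaling. Hypoblast and yolk sac markers summed to 1758 to 3378 reads per M in vitrified TE, 602 to 1032 in fresh TE and 1540 to 2622 in fresh whole embryos, and 10 of 11 tested markers were called higher in vitrified TE. APOA1, an apolipoprotein, carried most of that sum at 1683 reads per M in vitrified and 457.5 in fresh TE. Among epiblast markers 3 of 12 found were tested and POU5F1 and SALL4 were called higher, while NANOG and SOX2 had means of at most 0.19 reads per M in both TE groups. Leukocyte markers summed to 9.20 to 14.7 reads per M in vitrified and 29.3 to 42.8 in fresh TE, where AIF1 led. The part of these cells in the results below was not tested. In bulk tissue, fewer cells of a type and less RNA per cell cannot be told apart.

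The size of the change of a typical gene depended on the scaling. Of 15542 listed genes, 9001 had at least 10 reads in at least 5 of the 12 TE libraries and were tested. Over all tested genes the median difference was 2.03-fold in favour of vitrified TE as deposited, 1.44-fold with libraries scaled to their listed genes, and 1.10-fold with median-ratio scaling, and with quantile normalization the median log2 change was -0.04. A gene was called only if limma gave an adjusted p under 0.05 with the same sign under all 3 scalings. By this rule 4265 genes (47.4% of those tested) were called, of which 3576 (39.7%) were higher in vitrified TE and 689 (7.65%) lower. Deposited values alone called 6810 higher (75.7%) and 689 lower (7.65%), and listed-gene scaling alone 4914 (54.6%) and 1592 (17.7%). Median-ratio scaling alone called 3576 higher (39.7%) and 2731 lower (30.3%), and quantile normalization 2812 (31.2%) and 3097 (34.4%). With fresh pairs averaged the counts were 3169 higher and 593 lower, and with like libraries averaged in both groups, which leaves 4 vitrified and 3 fresh samples, they were 3116 and 565.

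**Figure D1:**
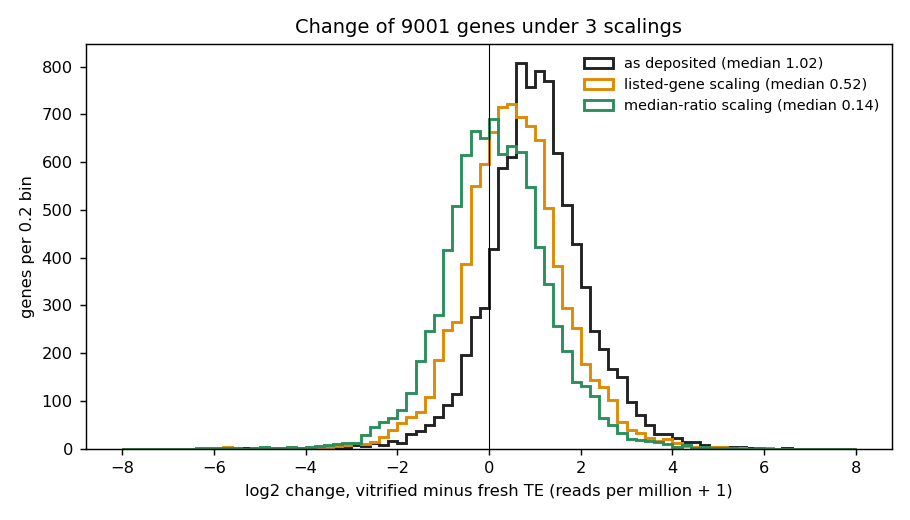
Distribution over the 9001 tested genes of the log2 change, vitrified minus fresh TE (horizontal axis, on reads per M + 1), as genes per bin of 0.2 (vertical axis). The curves for values as deposited, listed-gene scaling and median-ratio scaling have the same shape and sit at medians of 1.02, 0.52 and 0.14, and the vertical line marks no change.

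Changes below are given with median-ratio scaling unless another is named, on the log2(reads per M + 1) scale, where the added 1 shrinks the change of genes with few reads. Adjusted p-values are the largest of the 3 scalings. Of the tested genes 1374 stayed under 10 reads in every fresh TE library and passed the filter through vitrified TE alone, of which 1151 were called higher, and 20 passed through fresh TE alone, all 20 called lower. The median change also fell with the level of a gene, from 0.60 in the lowest of 5 equal classes of mean level to -0.30 in the highest.

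The 8 highest genes had different roles. EIF4EBP1, the repressor of cap-dependent translation that mTOR switches off by phosphorylation (chromosome 27, 32951594 to 32973436, UMD3.1), had a level of 6.02 to 8.71 RPKM in vitrified TE (median 7.79). In fresh TE 1 to 5 it was 0.0148, 0.0229, 0.0466, 0.0566 and 0.0205 RPKM, which is 2 to 9 reads a library. Every vitrified TE library lay above every fresh library, whole embryos included. EIF4EBP1 passed the filter on reads through vitrified TE alone, so its test is not given, and the same holds for other genes below with under 10 reads in every library of a TE group. SLC34A2, a sodium-dependent phosphate carrier (chromosome 6, 46724553 to 46749778), was at 2.14 to 4.85 RPKM (median 3.41) in vitrified TE and at 0.0128, 0.0066, 0.0151, 0.0272 and 0.0178 RPKM in fresh TE. The groups lay far apart, although the fresh values rest on 1 to 5 reads each, and fresh whole embryos reached 0.45 to 1.65 RPKM.

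FOLR1, a folate receptor (chromosome 15, 52572873 to 52583868), stood at 5.99 to 22.4 RPKM (median 12.5) in vitrified TE. Its fresh TE values were 0.103, 0.0909, 0.174, 0.212 and 0.231 RPKM. Fresh whole embryos ranged from 3.30 to 19.6 RPKM and overlapped vitrified TE, so it was fresh TE that stood apart (log2 change 4.78 ± 0.23 SE, adjusted p = 3.0e-12). HDLBP, a lipoprotein-binding RNA-binding protein, was at 1.65 to 2.33 RPKM (median 2.19) in vitrified TE and at 0.0258, 0.0236, 0.0203, 0.0463 and 0.0291 in fresh TE. FBLN2, the matrix protein fibulin 2, was at 1.25 to 2.45 (median 2.02) and at 0.0135, 0.0173, 0.0238, 0.0314 and 0.0279. Neither overlapped between the groups, with ratios of means of 33.6 and 38.5 (adjusted p = 4.0e-15 and 5.2e-14). UCP2, a carrier of the inner mitochondrial membrane, was at 5.44 to 8.75 RPKM (median 8.0) in vitrified TE and had 1, 1, 4, 1 and 0 reads in fresh TE, too few for a ratio. The other genes the rule placed among the 8 highest were CLDN6, a tight junction claudin, with a log2 change of 4.98, and DNMT3A, a de novo DNA methyltransferase, with 4.83.

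Among the 8 lowest genes, 5 were at the level of fresh whole embryos in vitrified TE. ANKRD1, a nuclear ankyrin repeat protein (chromosome 26, 12571209 to 12580581), had a level of 5.82, 5.19, 7.65, 7.32 and 9.51 RPKM in fresh TE 1 to 5. It was 0.0335 to 0.685 RPKM (median 0.120) in vitrified TE and 0.0294 to 0.631 in fresh whole embryos. The TE groups did not overlap, and the fresh TE mean was 41.3 times the vitrified mean as deposited and 86.5 times with median-ratio scaling (adjusted p = 1.8e-09). SLC27A6, a fatty acid transporter (chromosome 7, 26237929 to 26329595), was at 0.560, 0.427, 0.636, 0.582 and 0.382 RPKM in fresh TE, at 0.00548 to 0.0245 (median 0.00950) in vitrified TE and at 0.00179 to 0.0214 in fresh whole embryos. PRXL2A, a peroxiredoxin-like protein, was at 79.2, 61.9, 44.8, 44.0 and 39.998 RPKM in fresh TE, at 1.93 to 4.95 (median 2.93) in vitrified TE and at 2.60 to 4.10 in fresh whole embryos. DEFB, a beta-defensin, was at 13.9, 10.9, 9.63, 10.6 and 7.67 RPKM in fresh TE, at 0.374 to 0.939 (median 0.743) in vitrified TE and at 0.437 to 1.06 in fresh whole embryos. In each case vitrified TE and fresh whole embryos overlapped and fresh TE lay above both (log2 changes of -5.42, -5.14 and -4.68 for SLC27A6, PRXL2A and DEFB, adjusted p at most 1.5e-11). PINLYP was the other gene of these 5.

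PLA2G7, the phospholipase that breaks down platelet-activating factor (chromosome 23, 19907160 to 19945052), differed from these. It was at 1.49, 1.36, 0.783, 0.867 and 2.58 RPKM in fresh TE, at 0.0763 to 0.309 in fresh whole embryos and at 0 to 0.0199 (median 0.00574) in vitrified TE. Vitrified TE was therefore below every fresh library of both kinds, at 0 to 6 reads a library, and PLA2G7 passed the filter through fresh TE alone. PAGE4, an X-linked gene of the PAGE family, varied most within the groups, at 110, 110, 200, 211 and 47.5 RPKM in fresh TE and 0.928 to 22.7 (median 16.8) in vitrified TE (log2 change -4.87 ± 0.77, adjusted p = 0.0010). Vitrified TE 6 and 7, which had no DDX3Y reads, were at 18.5 and 20.7 RPKM. Vitrified TE 1 to 5, which had 105 to 178 DDX3Y reads, were at 22.7, 16.8, 4.49, 0.928 and 4.01. The remaining gene of the 8 was IFNT, an interferon tau gene.

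**Figure D2:**
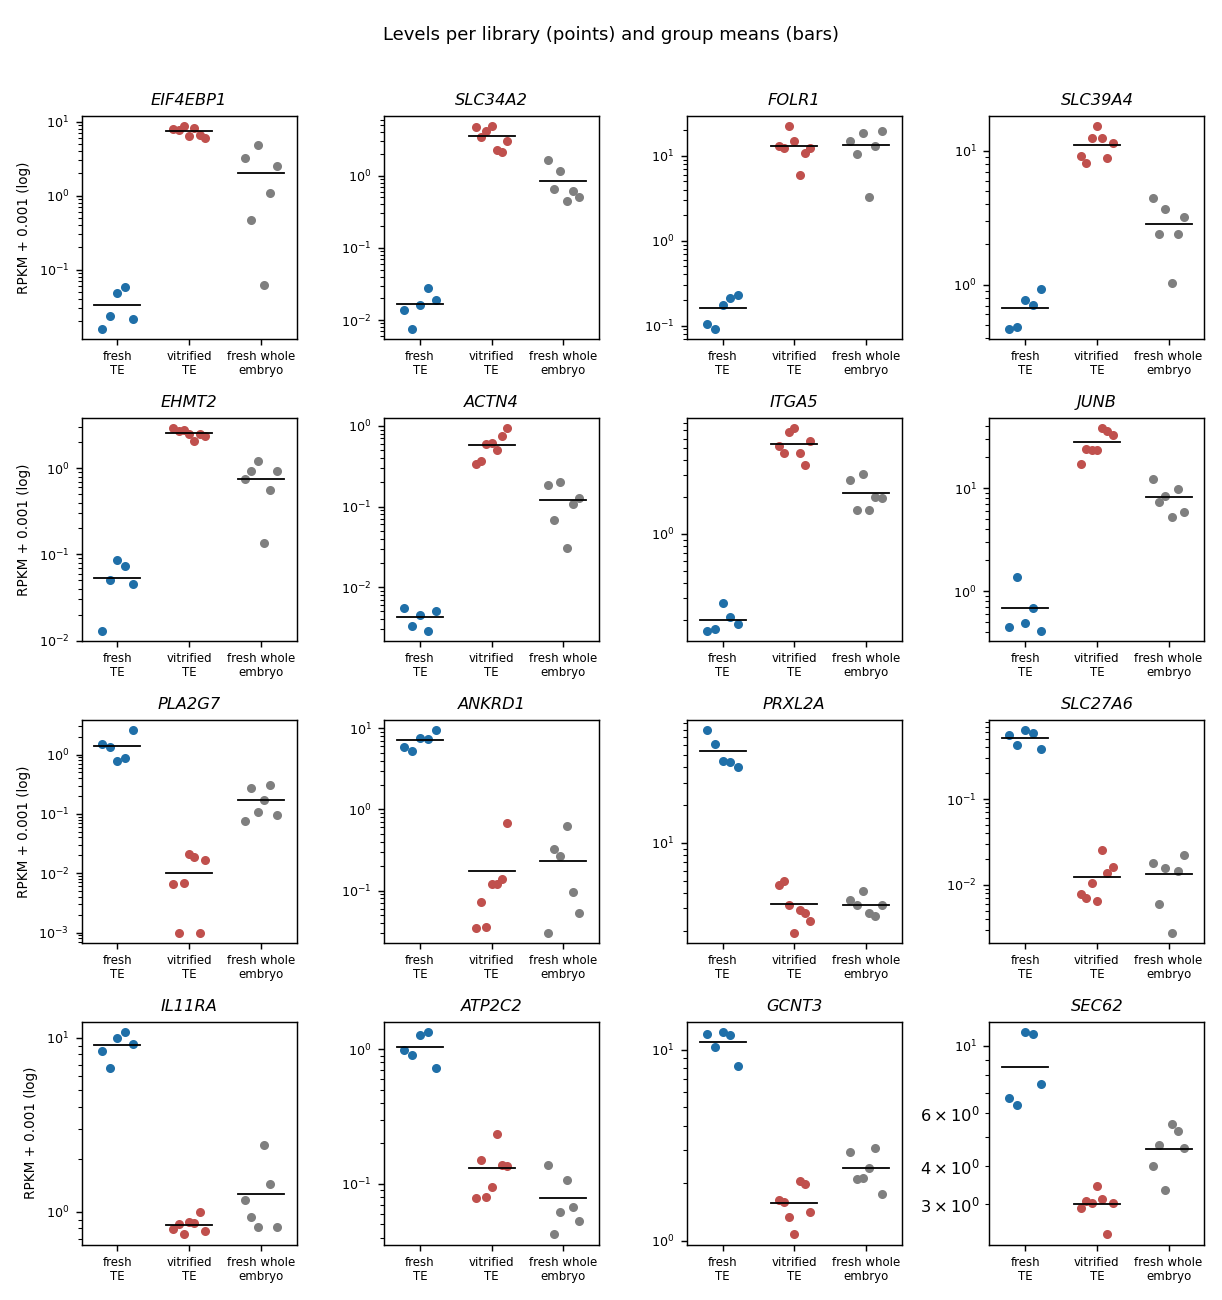
Level of 16 genes in each library (points, RPKM + 0.001 on a log axis) for fresh TE (5), vitrified TE (7) and fresh whole embryos (6), with group means as bars. In the upper 8 panels vitrified TE lies above fresh TE, and in the lower 8 panels, from PLA2G7 on, it lies below, with fresh whole embryos at or near vitrified TE for ANKRD1, PRXL2A and SLC27A6.

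The fresh whole embryos were placed between the TE groups gene by gene. Of the 689 genes called lower, the mean of the fresh whole embryos was nearer to vitrified than to fresh TE for 558 (81.0%), and of the 3576 called higher for 2253 (63.0%), beside 61.3% of all genes tested. All 6 fresh whole embryos lay beyond all 5 fresh TE libraries, on the side of vitrified TE, for 224 lower (32.5%) and 1436 higher genes (40.2%). Over all genes tested they lay beyond fresh TE, on either side, for 1981 (22%). Called genes were chosen by the same fresh TE values, so these shares are a description and no test.

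One-carbon metabolism had the highest median among 52 gene lists with median-ratio scaling, and the second highest, after integrins and focal adhesion, as deposited and with listed-gene scaling. Of its 38 symbols 35 were found and 30 tested, with 19 called higher (63.3%, beside 39.7% of all genes). Another 2 were lower (6.67%, beside 7.65%) and 9 not called. The median log2 change was 0.90 against 0.14 for all genes (1.68 against 1.02 as deposited). SHMT2, the mitochondrial enzyme that passes the serine carbon to folate, was at 15.3 to 21.3 RPKM (median 18.1) in vitrified TE and at 1.20, 1.64, 1.57, 1.80 and 1.70 in fresh TE, with fresh whole embryos between at 6.70 to 9.58. The groups did not overlap and the log2 change was 2.36 ± 0.13 (adjusted p = 7.2e-12). MTHFD2, the next enzyme of the mitochondrial folate branch, had a log2 change of 2.42. MTHFD1L, which releases formate, passed the filter through vitrified TE alone. AHCY, which hydrolyses S-adenosylhomocysteine, was called lower at -1.58 (adjusted p = 0.0058), a call that was lost when fresh pairs were averaged. Of the 19 higher members 6 passed the filter through vitrified TE alone.

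In purine and pyrimidine synthesis 43 of 49 symbols were tested, 13 were higher (30.2%, beside 39.7% of all genes), 6 lower (14.0%, beside 7.65%) and 24 not called, with a median of -0.26. AK4, an adenylate kinase of the mitochondrial matrix, was at 0.255, 0.258, 0.186, 0.187 and 0.215 RPKM in fresh TE and at 0.0114 to 0.0623 (median 0.0231) in vitrified TE, with no overlap (log2 change -3.50 ± 0.22, adjusted p = 1.5e-09). The cytosolic adenylate kinase AK1 went the other way, at 0.745 to 1.16 RPKM in vitrified TE against 2, 2, 0, 0 and 1 reads in fresh TE. In the tricarboxylic acid cycle and pyruvate entry 17 of 35 tested members were higher (48.6%, beside 39.7% of all genes). Another 3 were lower (8.57%, beside 7.65%), and the median was 0.37. GLUD1, glutamate dehydrogenase, was at 0.364 to 0.880 RPKM (median 0.695) in vitrified TE and at 0.0252, 0.0130, 0.0363, 0.0178 and 0.0116 in fresh TE. MPC2, a subunit of the mitochondrial pyruvate carrier, was called lower (log2 change -1.9965), and so were MDH2 (-1.55) and PDK1 (-1.34).

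Of 29 tested zinc and copper genes 11 were higher (37.9%, near the 39.7% of all genes) and 3 lower (10.3%, beside 7.65%), with a median of 0.30. SLC39A4, the zinc importer of the plasma membrane, was at 8.05 to 15.3 RPKM (median 11.4) in vitrified TE, at 0.469, 0.482, 0.766, 0.704 and 0.932 in fresh TE and at 1.02 to 4.46 in fresh whole embryos. Vitrified TE lay above both fresh kinds (log2 change 2.71 ± 0.18, adjusted p = 9.3e-11). The copper chaperone COX17, which serves cytochrome oxidase, was at 8.22, 8.88, 17.1, 17.3 and 10.1 RPKM in fresh TE and at 4.83 to 6.82 (median 6.15) in vitrified TE. It was below every fresh library, at a log2 change of -2.07 ± 0.17 (adjusted p = 3.9e-05). ATP-binding cassette transporters had 9 of 16 tested members higher (56.2%, beside 39.7%) and 2 lower (12.5%, beside 7.65% of all genes), with a median of 0.54. Both lower members export drugs and metabolites: ABCG2 was at 0.353, 0.323, 0.309, 0.283 and 0.370 RPKM in fresh TE and 0.0441 to 0.141 (median 0.0628) in vitrified TE, without overlap (log2 change -3.07), and ABCC2 changed by -2.34.

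The insulin, IGF and mTOR list, to which EIF4EBP1 belongs, had 16 of 38 tested members higher (42.1%) and 1 lower (2.63%, beside 7.65% of all genes). The share higher and the median of 0.18 were near the 39.7% and 0.14 of all genes. Of the 16 higher members 9 passed the filter through vitrified TE alone. AKT1, the kinase between the insulin receptor and mTOR, was at 0.996 to 1.39 RPKM in vitrified TE and had 0, 0, 2, 1 and 0 reads in fresh TE. In the MAP kinase cascade 21 of 43 were higher (48.8%, beside 39.7% of all genes) and 3 lower (6.98%, beside 7.65%), with a median of 0.31. Of the 21 higher members 5 passed the filter through vitrified TE alone, and the adaptor GRB2 led (log2 change 2.47). The Hippo pathway, which restrains growth through TEAD factors, had 11 of 22 higher (50%, beside 39.7% of all genes) and none lower (median 0.63). Of these 11 members 2 passed the filter through vitrified TE alone. VGLL1, a TEAD cofactor, was at 1.25 to 4.08 RPKM (median 3.01) in vitrified TE and at 0.0784, 0.0202, 0.0848, 0.0832 and 0.0814 in fresh TE, with no overlap (log2 change 3.64 ± 0.23, adjusted p = 6.2e-11).

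Immediate early genes, which cells switch on within minutes of a stimulus, had 12 of 27 tested members higher (44.4%, near the 39.7% of all genes). Only 1 was lower (3.7%, beside 7.65%), and the median was 0.39. Of the 12 higher members 3 passed the filter through vitrified TE alone. JUNB, an AP-1 subunit (chromosome 7, 13851131 to 13852934), was at 17.2 to 38.1 RPKM (median 24.1) in vitrified TE, at 0.449, 1.39, 0.494, 0.686 and 0.414 in fresh TE and at 5.29 to 12.2 in fresh whole embryos. MYC, a growth transcription factor, was at 6.52 to 11.4 RPKM (median 9.15) in vitrified TE, at 0.592, 0.513, 0.515, 0.503 and 0.374 in fresh TE and at 2.37 to 5.21 in fresh whole embryos. For both genes the 7 vitrified TE libraries lay above all 11 fresh libraries (log2 changes 3.70 ± 0.23 and 2.77 ± 0.16, adjusted p = 3.5e-11 and 9.5e-12). DUSP6, the phosphatase that turns ERK off, was the member called lower, at 3.56, 3.57, 4.26, 5.08 and 4.87 RPKM in fresh TE, 1.69 to 3.05 (median 2.44) in vitrified TE and 4.08 to 11.96 in fresh whole embryos. It lay below every fresh library (log2 change -1.75 ± 0.15, adjusted p = 2.5e-04).

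Chromatin enzymes were among the lists with the highest share of calls. Of 32 tested histone lysine methyltransferases and demethylases 23 were higher (71.9%, beside 39.7% of all genes), none lower and 9 not called (median 0.89). Of the 23 higher members 9 passed the filter through vitrified TE alone. EHMT2, which places methyl groups on lysine 9 of histone H3 (chromosome 23, 27277900 to 27291345), was at 2.05 to 2.92 RPKM (median 2.48) in vitrified TE, at 0.0120, 0.0495, 0.0853, 0.0716 and 0.0445 in fresh TE and at 0.134 to 1.20 in fresh whole embryos. Its partner EHMT1 changed by 2.44. KDM1A, a lysine demethylase, was at 0.608 to 1.05 RPKM (median 0.848) in vitrified TE and at 0.0196, 0.0353, 0.0598, 0.0604 and 0.0973 in fresh TE. All 3 genes were free of overlap between the TE groups. EHMT2 had 1 to 9 reads in each fresh TE library and passed the filter through vitrified TE alone, and adjusted p was at most 2.1e-09 for EHMT1 and KDM1A.

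Chromatin remodelling complexes had 18 of 33 tested members higher (54.5%, beside 39.7% of all genes) and 1 lower (3.03%, beside 7.65%), with a median of 0.51. Of the 18 higher members 4 passed the filter through vitrified TE alone. RUVBL2, an ATPase of the INO80 and TIP60 complexes, was at 6.12 to 9.49 RPKM (median 6.42) in vitrified TE and at 0.378, 0.298, 0.367, 0.407 and 0.338 in fresh TE, with a log2 change of 2.99 ± 0.12 (adjusted p = 1.4e-13). SMARCA1, an ISWI-type ATPase on the X chromosome, was the lower member, at 0.123, 0.0933, 0.122, 0.104 and 0.0518 RPKM in fresh TE and 0 to 0.0135 (median 0.00335) in vitrified TE. The groups of SMARCA1 did not overlap, and with 0 to 9 reads in each vitrified TE library it passed the filter through fresh TE alone. In vitrified TE 6 and 7, which like fresh TE 1 and 3 to 5 had no DDX3Y reads, SMARCA1 had 3 and 2 reads. The Mediator complex, which links enhancers to RNA polymerase II, had 18 of 30 members higher (60%, beside 39.7% of all genes) and none lower (beside 7.65%), with a median of 0.55. Among these 18 members, 4 passed the filter through vitrified TE alone, and MED8 led at 2.45. Among the 12 subunits of RNA polymerase II, 3 were higher (25%, beside 39.7% of all genes) and 1 lower (8.33%, near the 7.65% of all genes). The largest subunit, POLR2A, had 0, 0, 0, 1 and 1 reads in fresh TE and was at 0.213 to 0.389 RPKM in vitrified TE and 0.00639 to 0.0353 in fresh whole embryos, and POLR2I was lower (log2 change -1.65, adjusted p = 0.023).

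In the integrin and focal adhesion list 20 of 28 tested members were higher (71.4%, beside 39.7% of all genes), none lower (beside 7.65%) and 8 not called, with a median of 0.88, or 1.81 as deposited. Of the 20 higher members 5 passed the filter through vitrified TE alone. ACTN4, the actinin that ties actin to adhesions, had 2, 1, 2, 1 and 2 reads in fresh TE and was at 0.333 to 0.936 RPKM (median 0.596) in vitrified TE. ITGA5, the integrin chain that binds fibronectin, was at 3.67 to 7.30 RPKM (median 5.20) in vitrified TE, at 0.162, 0.166, 0.272, 0.209 and 0.185 in fresh TE and at 1.57 to 3.09 in fresh whole embryos. Vitrified TE exceeded every fresh library for ITGA5 (log2 change 3.46 ± 0.17, adjusted p = 8.4e-13).

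Calcium handling had 17 of 28 tested members higher (60.7%, beside 39.7% of all genes) and 5 lower (17.9%, beside 7.65%), with a median of 0.62. Of the 17 higher members 7 passed the filter through vitrified TE alone. ITPR3, a calcium release channel of the endoplasmic reticulum, was at 0.308 to 0.557 RPKM (median 0.485) in vitrified TE and had 0, 0, 1, 4 and 2 reads in fresh TE. ATP2C2, a calcium and manganese pump of the secretory pathway (chromosome 18, 10632350 to 10688581), was at 0.993, 0.900, 1.28, 1.34 and 0.723 RPKM in fresh TE and at 0.0782 to 0.233 (median 0.135) in vitrified TE, with fresh whole embryos at 0.0412 to 0.138. Its log2 change was -3.92 ± 0.21 (adjusted p = 2.2e-10).

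The secretory pathway and its glycans stood at the low end of the lists. Of 49 tested genes of protein entry into the endoplasmic reticulum and N-glycosylation, 9 were higher (18.4%, beside 39.7% of all genes). Another 7 were lower (14.3%, beside 7.65%) and 33 not called (median -0.35, or 0.71 as deposited). SEC62, which guides proteins into the translocon after their synthesis, was at 6.70, 6.38, 11.1, 10.9 and 7.45 RPKM in fresh TE and at 2.38 to 3.43 (median 3.03) in vitrified TE. SEC61G, a subunit of the translocon itself, changed by -2.52, and the oligosaccharyltransferase subunits STT3A and RPN2 by -1.72 and -1.77. ALG3, a mannosyltransferase, led the 9 higher at 2.62. In contrast, COPI and COPII vesicle coats had 20 of 38 tested members higher (52.6%, beside 39.7% of all genes) and 1 lower (2.63%, beside 7.65%), with a median of 0.31.

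Enzymes of sialylation and mucin-type glycans had 5 of 20 higher (25%, beside 39.7% of all genes) and 5 lower (25%, beside 7.65%), with a median of -0.32. GCNT3, which branches mucin glycans, was at 12.1, 10.3, 12.4, 11.97 and 8.17 RPKM in fresh TE, at 1.08 to 2.06 (median 1.59) in vitrified TE and at 1.76 to 3.07 in fresh whole embryos. Fresh TE stood above the other groups without overlap (log2 change -3.69 ± 0.15, adjusted p = 4.8e-12). Annexins, S100 proteins and galectins had the lowest median, -0.54, with 7 of 25 higher (28%, beside 39.7% of all genes) and 7 lower (28%, beside 7.65%). S100A11, a calcium-binding protein, was at 25.2, 24.7, 15.4, 14.4 and 39.4 RPKM in fresh TE and at 3.35 to 26.9 (median 6.97) in vitrified TE. Here the groups overlapped, through 1 vitrified library (log2 change -2.52 ± 0.42, adjusted p = 0.0064). LGALS3 (1.85) and ANXA2 (2.32) were called higher. Of the chemokine and interleukin list 12 of 53 genes found passed the filter. Of these, 5 were higher (41.7%, near the 39.7% of all genes) and 1 lower (8.33%, near the 7.65% of all genes). Among the 5 higher genes, 4 passed the filter through vitrified TE alone. The lower one was IL11RA, the receptor of interleukin 11 (chromosome 8, 77361667 to 77368155), at 8.39, 6.70, 9.97, 10.8 and 9.24 RPKM in fresh TE, 0.738 to 0.997 (median 0.849) in vitrified TE and 0.816 to 2.41 in fresh whole embryos (log2 change -4.20 ± 0.13, adjusted p = 4.9e-14). The list's median was -0.51, and 0.32 when 10 reads in 2 libraries sufficed for testing.

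Genes for ubiquitin moved apart. UBB, a polyubiquitin gene, was at 1419 to 2151 RPKM in vitrified TE (median 1992) and at 137, 132, 133, 122 and 167 in fresh TE. RPS27A, which encodes ubiquitin fused to a ribosomal protein, was at 291 to 341 RPKM (median 300.6) in vitrified TE and at 608, 571, 771, 787 and 707 in fresh TE. Both were free of overlap between the TE groups, with log2 changes of 2.60 ± 0.13 and -2.25 ± 0.10 (adjusted p = 1.2e-12 and 8.4e-09). Ribosome assembly in the nucleolus had 19 of 49 tested members higher and none lower (median -0.04), near the 39.7% of all genes. Messenger RNA decay (19 of 46 higher, 3 lower), autophagy (12 of 35 and none), transfer RNA modification (17 of 43 and 2) and double-strand break repair (17 of 44 and 2) also had shares of higher calls near that of all genes. Antigen presentation had 1 of 14 higher (7.14%) and none lower, and the primary cilium 7 of 36 (19.4%) and 1 (2.78%), beside 39.7% and 7.65% of all genes.

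**Figure D3:**
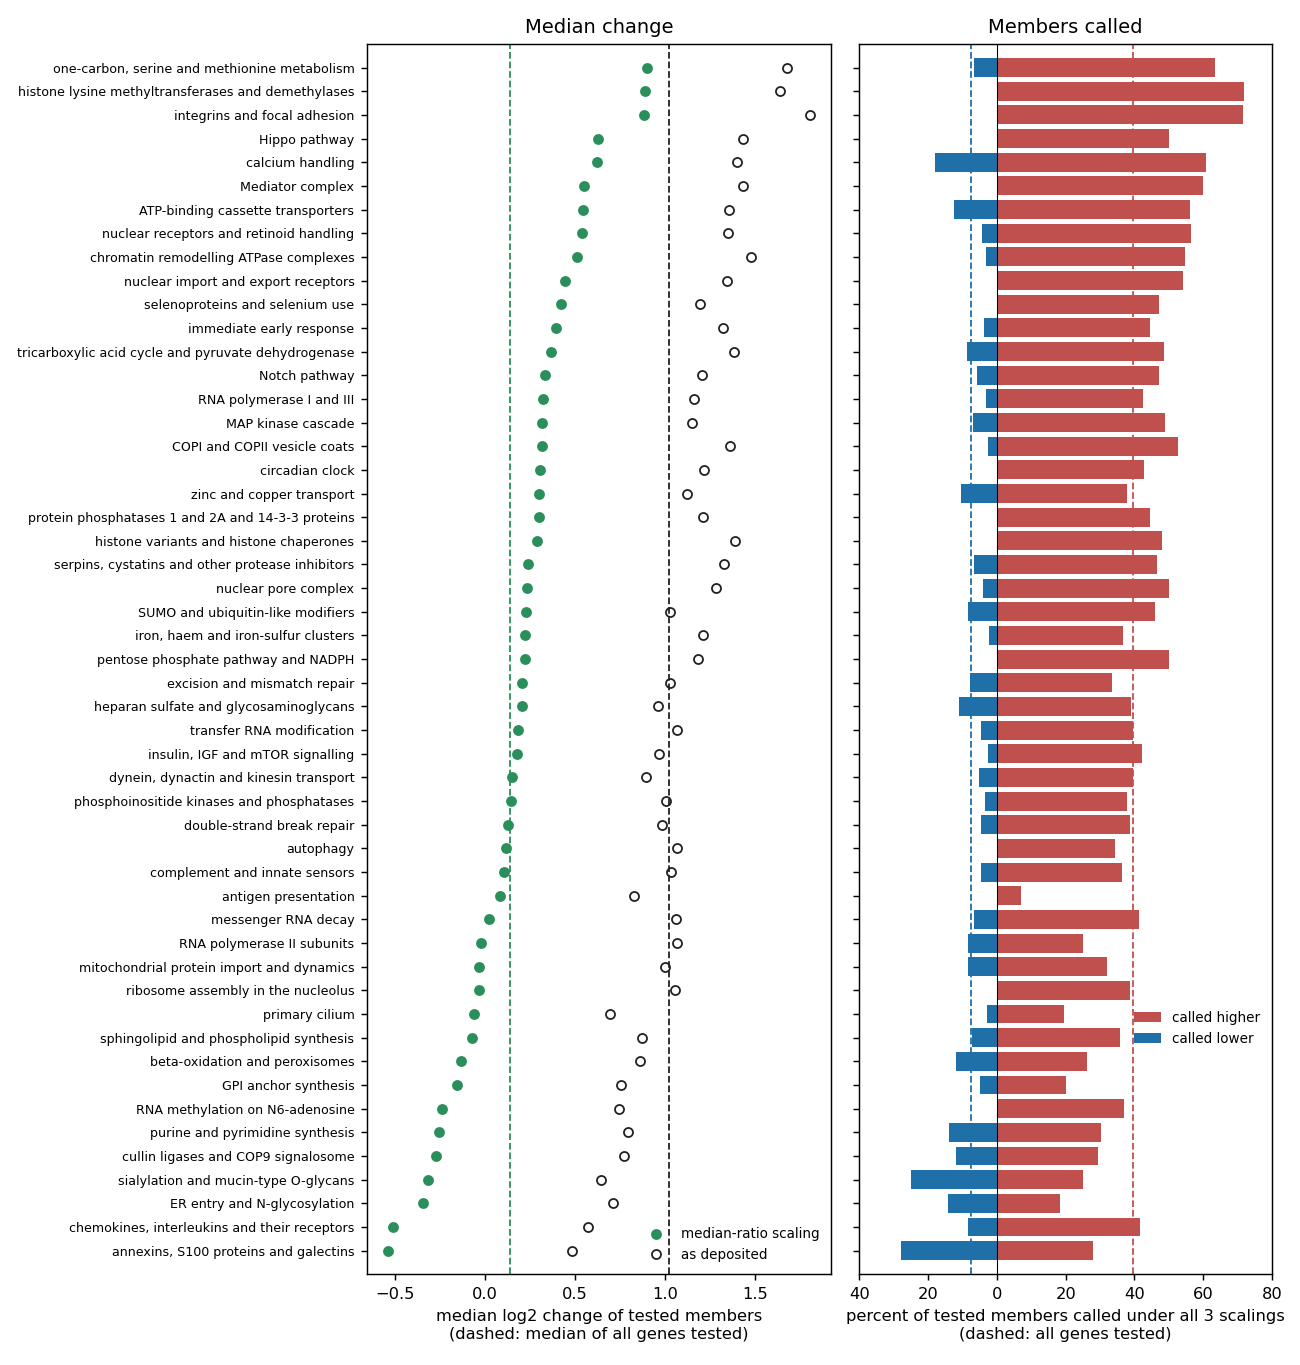
Left, median log2 change of the tested members of each of 51 gene lists, with median-ratio scaling (filled) and as deposited (open), and dashed lines at the medians of all genes (0.14 and 1.02). Right, percent of tested members called higher (right of 0) and lower (left of 0) under all 3 scalings, with dashed lines at 39.7% and 7.65% for all genes. One-carbon metabolism, histone lysine enzymes and integrins stand at the top, and annexins, S100 proteins and galectins at the bottom.

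Some genes of vitrified TE lay beyond all 11 fresh libraries, the 6 whole embryos included, both as deposited and with median-ratio scaling. There were 775 such genes higher (8.61% of those tested) and 114 lower (1.27%). NAPA, an adaptor that recycles the SNARE proteins of membrane fusion (chromosome 18, 54902551 to 54928521), was at 1.14 to 1.70 RPKM (median 1.32) in vitrified TE, at 0.0873, 0.0898, 0.0736, 0.106 and 0.0403 in fresh TE and at 0.0633 to 0.317 in fresh whole embryos. WNK1, a kinase that governs ion cotransport, was at 0.209 to 0.268 RPKM (median 0.240), at 0.0127, 0.0170, 0.0160, 0.0215 and 0.0187, and at 0.0246 to 0.0599. For these 2 genes the fresh whole embryos lay nearer to fresh than to vitrified TE (log2 changes 2.68 ± 0.17 and 2.41 ± 0.14, adjusted p = 6.0e-11 and 1.2e-11).

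PPP1R15A, which restores translation after stress by directing a phosphatase to eIF2, was at 8.003 to 15.9 RPKM (median 11.1) in vitrified TE, at 0.333, 0.440, 0.112, 0.202 and 0.220 in fresh TE and at 0.836 to 2.67 in fresh whole embryos. EP300, a histone acetyltransferase, was at 0.609 to 0.775 RPKM (median 0.678), at 0.0390, 0.0428, 0.0389, 0.0309 and 0.0600, and at 0.0977 to 0.201. PPP1R15A had 3 to 9 reads in each fresh TE library and passed the filter through vitrified TE alone, and EP300 had a log2 change of 2.67 ± 0.15 (adjusted p = 4.8e-12). The mitochondrially encoded complex I genes ND5 (3.09) and MT-ND4L (2.17) completed the 6 higher genes chosen by the gap to the nearest fresh library. The part of the whole mitochondrial share, which was also higher in vitrified TE than in both fresh kinds, was not tested.

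The 6 lower genes chosen by the same gap included PLA2G7, given above. RPL30, a protein of the large ribosomal subunit (chromosome 14, 68467563 to 68470953), was at 146, 136, 159, 163 and 164 RPKM in fresh TE, at 189 to 245 in fresh whole embryos and at 52.0 to 84.7 (median 71.6) in vitrified TE. HINT1, a nucleotide hydrolase, was at 30.4, 31.2, 39.6, 39.8 and 37.8 RPKM in fresh TE, at 39.6 to 52.3 in fresh whole embryos and at 14.6 to 20.4 (median 17.6) in vitrified TE. Both were lower in vitrified TE as deposited too, with fresh means 2.26 and 2.04 times the vitrified ones (adjusted p = 1.1e-07 and 2.3e-07).

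NFU1, which delivers iron-sulfur clusters in mitochondria, was at 2.08, 1.66, 2.21, 2.25 and 2.39 RPKM in fresh TE, at 2.75 to 3.36 in fresh whole embryos and at 0.760 to 1.45 (median 1.06) in vitrified TE. ARPP19, an inhibitor of protein phosphatase 2A in mitosis, was at 10.3, 11.01, 15.2, 16.7 and 13.3 RPKM, at 8.49 to 12.5 and at 3.24 to 4.41 (median 3.67). Neither gene overlapped between vitrified TE and any fresh library (log2 changes -1.96 ± 0.14 and -2.86 ± 0.13, adjusted p = 3.6e-05 and 4.0e-10).

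**Figure D4:**
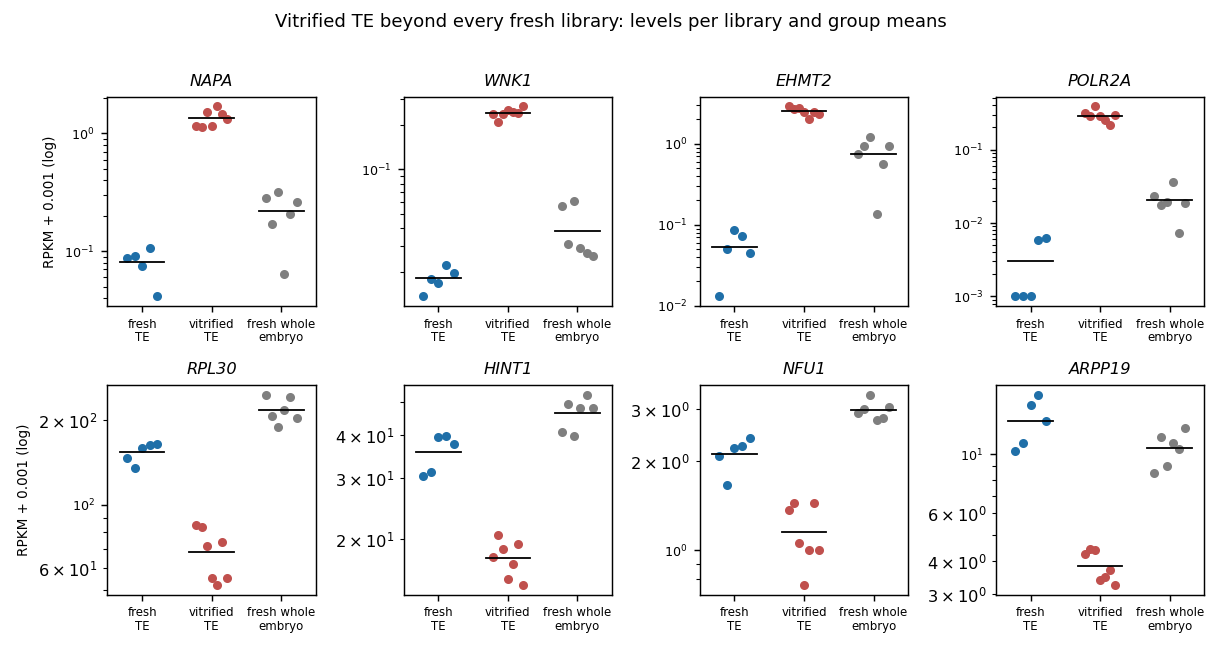
Level of 8 genes in each library (points, RPKM + 0.001 on a log axis) for fresh TE, vitrified TE and fresh whole embryos, with group means as bars. In the upper 4 panels all 7 vitrified TE libraries lie above the 11 fresh libraries, and in the lower 4 panels all lie below them.

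Position and length of the genes were described over the whole table. The share called higher stayed between 36.2% and 43.0% over 8 classes of genomic span, while the share called lower was 17.3% for genes of up to 2 kb and 5.02% to 8.99% in longer classes. All 7 tested small and other noncoding RNA genes of the classes snRNA, snoRNA and misc_RNA were called lower. By chromosome, 25 had the highest median change (0.43, with 49.4% of 336 genes called higher) and was followed by chromosomes 18 (0.38), 7 (0.35) and 29 (0.32). The X chromosome had the lowest median, -0.22, with 28.9% of its 277 genes called higher and 17.3% lower. Reads of the Y-linked DDX3Y were present in 5 of 7 vitrified TE libraries and, beyond 1 read, in no fresh TE library, and the part of this difference in the X chromosome values was not tested.

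**Figure D5:**
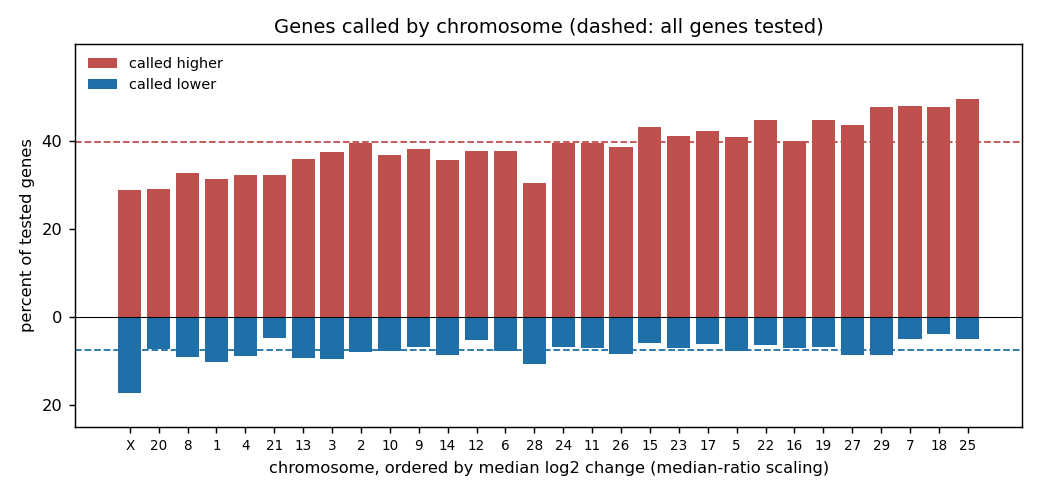
Percent of tested genes called higher (above 0) and lower (below 0) on each chromosome, ordered by median log2 change with median-ratio scaling, with dashed lines at 39.7% and 7.65% for all genes. The X chromosome stands at the left end with the largest share called lower (17.3%) and chromosome 25 at the right end.

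The 7 vitrified TE libraries varied about as much as the 5 fresh ones, with a median SD per gene of 0.26 and 0.30 on the log2 scale. The genes that were on in some vitrified libraries and off in others stood out. PPP2R5B, a regulatory subunit of protein phosphatase 2A, was at 14.6, 21.0, 10.95 and 10.4 RPKM in vitrified TE 3, 4, 6 and 7, at 0.0591, 0.0124 and 0.215 in vitrified TE 1, 2 and 5, and at no more than 0.163 in any fresh library. NPSR1, a neuropeptide receptor, was at 0.405 and 0.281 RPKM in vitrified TE 6 and 7 and at most 0.0016 in the other 5, while fresh TE 5 and some fresh whole embryos also held it. EXOC3L4, an exocyst-like gene, was at 1.71, 1.33, 1.08 and 1.56 RPKM in vitrified TE 1 to 4 and at 0 in 5 to 7. SYNE2 and SERPING1 also differed between vitrified TE libraries, but were not among the 21 on-off genes and had at least 19 reads in each. SYNE2, a nuclear envelope protein, was at 0.771 and 1.38 RPKM in vitrified TE 6 and 7 and at 0.00968 to 0.0227 in the other 5 vitrified TE libraries. SERPING1, the inhibitor of complement C1, was at 0.194 and 0.286 in vitrified TE 6 and 7 and at 1.74 to 2.96 in the others. These genes were chosen after their values were seen.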

How the data were processed

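The deposited table gave 15542 genes of bovine day 14 samples on UMD3.1. FastQC, STAR 2.5.3a and Partek are named in the submitters' processing notes, and a counting rule is not given. The authors' deposited values are RPKM over genomic span plus an offset of 0.01, a unit inferred from the values. The offset was subtracted, and 94.4 to 95.8% of values under 1000 reads then fell within 0.1 of a whole read. Values were multiplied by span to reads per M, where M stands for 1000000.

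Genes with at least 10 reads in at least 5 of 12 TE libraries were tested in R 4.3.3 with limma 3.58.1 (trend and robust, statmod 1.5.0) on log2(reads per M + 1), in a model of the 12 TE samples, with Benjamini-Hochberg adjustment over 9001 genes. A call needed an adjusted p under 0.05 with the same sign as deposited, with listed-gene scaling and with median-ratio scaling. Ratios are of group means. On simulated data of 8760 genes, 91.0% of 2-fold and 100% of 4-fold changes were called in the right direction, and 0.0584% of unchanged genes were called. The simulated libraries were independent, with 200 genes changed and no difference in listed-gene share set between the groups. The real libraries differ in each of these points, so the rates do not carry over to the calls reported here. No count test was run, since the values are normalized.

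Members and the 52 lists (2180 symbols, 2020 found, 28 by synonym) were chosen with earlier results of these data known. Named genes were the 8 highest and 8 lowest called changes without overlap (at least 20 reads per M in the higher group, no cell type marker), the strongest called member of each list in each direction (at least 5 reads per M), and the 6 highest and 6 lowest by gap among genes beyond all 11 fresh libraries. KDM1A, SHMT2, MYC, AKT1, ITGA5, SYNE2, other list members given only by a log2 change, and the on-off genes were chosen after their values were seen. Lists have no test, and 1 list and 1 gene are not reported here. The labels do not say how samples of a group relate, so p-values measure the spread between these samples, which may be technical.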

Additional observations from a re-analysis of the deposited data

Results flagged for a closer look

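The values printed by library were searched for a single library far from the rest of its group, in 96 groups of 5 or 7 values. Chance marks about 1 in 20 such groups, and 6 were marked here. ANKRD1 was at 0.685 RPKM in vitrified TE 7 and at most 0.138 in the other vitrified TE libraries. S100A11 was at 26.9 RPKM in vitrified TE 1, next to 11.8, and SMARCA1 at 0.0135 in vitrified TE 5, next to 0.00581. RUVBL2 was at 9.49 RPKM in vitrified TE 3, next to 7.01. In fresh TE 2, JUNB was at 1.39 RPKM, next to 0.686, and VGLL1 at 0.0202, next to 0.0784. Fresh TE 1, which is nearly the same library, did not share these 2 values, which rest on 15 and 2 reads.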

How the results depend on the processing

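The scaling mattered most. Genes called higher numbered 6810 with deposited values alone, and genes called lower 1592 with listed-gene scaling alone, 2731 with median-ratio scaling alone and 3097 with quantile normalization alone. Without the filter on reads 15508 genes were tested and 1478 called lower. Leaving out each library in turn gave 3396 to 3522 genes higher and 601 to 686 lower. No gene called in the report was called in the opposite direction under any alternative, and 78.7% were called the same with quantile normalization, 88.1% with fresh pairs averaged and 86.2% with like libraries averaged in both groups (an alternative chosen after seeing the data). Of 114 named genes 10 lost their call in the last of these, among them AHCY. With the replicate number as a block, 3362 genes were higher and 631 lower. The numbers do not pair the samples: deviations of same-numbered TE samples correlated at -0.14 to 0.056, and the block ended the call of 4 of 114 named genes. On log2(RPKM + 1) the medians of 28 lists moved by more than the median standard error of their members. Depth limits the fresh side, where 1374 tested genes have under 10 reads in every library.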
